A study of Mus musculus with 20 samples.

Results

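The genes described here are 10 cytosolic heat shock genes of the mouse heart, found by their symbols among the 23284 genes measured in each heart. They are the HSP70 genes Hspa1a, Hspa1b, Hspa1l and Hspa8, the HSP110 gene Hsph1, the J-domain co-chaperone gene Dnajb1, and the small heat shock protein genes Hspb1, Hspb6, Hspb7 and Cryab. All 10 were present in the tables and all 10 passed the filter on low values. Messenger RNA was measured by RNA sequencing in 20 hearts of C57BL/6 mice, 2 in each of 10 groups. Control mice had floxed Wnt5a, and conditional knockout (CKO) mice had floxed Wnt5a together with Myh6-Cre/Esr 1, a Cre recombinase under a heart muscle promoter, so that deletion is directed to cardiac myocytes while other cells of the heart keep the gene. Wnt5a encodes a secreted signalling ligand, and the series title links it to YAP and to mechanical signalling in cardiac myocytes. Each genotype was taken without an operation at the end of tamoxifen treatment, and again 2 or 4 weeks after TAC or its sham operation. TAC, or transverse aortic constriction, narrows the aorta by surgery and so loads the left ventricle with pressure. Floxed Wnt5a was common to all groups, and no group without the floxed allele, or with Cre alone, was analysed here. The number in the label of a heart is used as its name. Control hearts were 22 and 23 at the end of tamoxifen, 12 and 16 (sham) and 11 and 32 (TAC) at 2 weeks, and 6 and 7 (sham) and 1 and 2 (TAC) at 4 weeks. CKO hearts were 21 and 24 at the end of tamoxifen, 14 and 15 (sham) and 13 and 31 (TAC) at 2 weeks, and 4 and 8 (sham) and 3 and 41 (TAC) at 4 weeks.

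Heat shock proteins keep other proteins folded. HSP70 proteins bind unfolded stretches in a cycle driven by ATP, J-domain proteins such as Dnajb1 start that cycle, and HSP110 proteins such as Hsph1 exchange the bound nucleotide and so release the client. Hspa8 is the constitutive HSP70 of most cells, Hspa1a and Hspa1b encode the inducible form that the transcription factor Hsf1 turns on under stress, and Hspa1l is a related gene best known from the testis. Small heat shock proteins hold unfolding proteins without ATP, and striated muscle is rich in them: Cryab protects desmin and other filaments, Hspb6 is a phosphorylated partner of the contractile apparatus, Hspb7 is a muscle-restricted member linked to actin filaments, and Hspb1 acts on actin and on stress survival.

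Hsf1 binds heat shock elements, which are repeats of the unit nGAAn in alternating orientation. Because Hspa1a and Hspa1b moved together from heart to heart, the 250 bases before each RefSeq start were searched on both strands for a pair of such units, written GAANNTTC or TTCNNGAA. Promoters of 8 of the 10 genes were in the RefSeq table (GRCm38.p6, the mm10 build). Of all 32851 promoters in it, 12.84% held a pair. Pairs were found for Hspa1a, Hspa1b, Hspb1, Hsph1 and Hspb6, and these stretches are shown 5′ to 3′ on the strand of the gene, with the matched letters in capitals. Both inducible HSP70 genes carried the same stretch, which ends 86 bases before each start, and Hspb1 held 2 pairs close together.
Hspa1a, chr17:34972242-34972271, minus strand: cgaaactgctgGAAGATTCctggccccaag
Hspa1b, chr17:34959324-34959353, minus strand: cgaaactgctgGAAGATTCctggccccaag
Hspb1, chr5:135887791-135887840, plus strand: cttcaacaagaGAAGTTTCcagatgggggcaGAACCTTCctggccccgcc
Hsph1, chr5:149636351-149636380, minus strand: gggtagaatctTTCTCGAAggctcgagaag
Hspb6, chr7:30553170-30553199, plus strand: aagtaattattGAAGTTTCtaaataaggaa
The stretch of Hsph1 reaches into the first exon of its GENCODE M21 model, and that of Hspb6 lies within its longer GENCODE gene model. The windows of Hspb7, Dnajb1 and Hspa1l held no such letters. A run of 3 alternating units was in 0.4657% of all promoters and in none of the 8. A match describes letters only and does not show binding.

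Hspa1a (chr17:34969190-34972156, minus strand) and Hspa1b (chr17:34956436-34959238, minus strand) are single-exon neighbours whose coding sequences were 99.4% identical in GENCODE M21, with 8 mismatches, 3 gaps and an identical run of 638 bases. Of the 250 bases before their starts, 247 were identical. The sources used here do not say how the authors' counting shared fragments between these genes, so the 2 values are uncertain as separate measurements. Hspa1l (chr17:34972703-34979285, plus strand) starts 547 bases from Hspa1a in the opposite direction, and its coding sequence was 82.7% identical to that of Hspa1a. Hspa1l overlaps the antisense gene Gm10501, Hspa1a overlaps Gm20481, and Cryab (chr9:50751325-50756636, plus strand) overlaps Hspb2 on the opposite strand over 1030 bases. The library kit keeps strand, but the strand setting of the counting is not given, so reads of these partners may be mixed. The other genes are Hspa8 (chr9:40800984-40810087, plus strand), Dnajb1 (chr8:83608193-83612653, plus strand) and Hspb7 (chr4:141420779-141425311, plus strand).

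Levels are in FPKM, the fragments of a gene scaled to its transcript length and to the mapped fragments of the library. The sources used here give no fragment totals, so absolute depth is unknown. Steps between low values gave a relative depth that differed by 1.37 times between the shallowest and the deepest heart. Summed FPKM was lowest in heart 31 (CKO TAC, 2 weeks), at 579596, and highest in heart 15 (CKO sham, 2 weeks), at 713671. The part of this range in the differences was not tested, apart from the fits with other scaling. No pair of tables was identical. Wnt5a, the targeted gene, was 2.55 to 4.11 FPKM in control and 1.76 to 2.14 FPKM in CKO sham hearts. After TAC it was 1.58 to 2.06 FPKM in control and 0.853 to 1.57 FPKM in CKO hearts. The genotypes thus did not overlap within either operation, while control TAC and CKO sham hearts did. Cardiac myocyte markers summed to 50990.0 to 77881 FPKM in all hearts, and Myh4, which marks fast skeletal muscle, was at 0. The atrial gene Myl7 was at 10 FPKM or more in 5 hearts, at 72.6 FPKM in heart 11, 32.2 in heart 16, 372 in heart 14, 323 in heart 21 and 50.6 in heart 24.

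By mean over the 20 hearts, the small heat shock proteins were the most abundant messages. Cryab stood at 2263 FPKM, rank 33 among all genes, followed by Hspb7 at 1225 FPKM (rank 71) and Hspb6 at 859 FPKM (rank 102). Hspa8 followed at 199 FPKM, Hspb1 at 87.2, Hsph1 at 25.0, Dnajb1 at 19.0, Hspa1l at 6.58, Hspa1a at 2.78 and Hspa1b at 2.40. The means of Hsph1 (SD 10.6) and Dnajb1 (SD 9.22) lay closer together than their SD over hearts, as did those of Hspa1a (SD 3.83) and Hspa1b (SD 3.34). Both genes of a pair come from the same hearts, and their difference within hearts was not tested. Between the highest and the lowest heart, Cryab differed by 1.82 times and Hspa8 by 1.83 times. Hspa1a differed by 20.03 times and Hspa1b by 21.8 times.

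**Figure D1:**
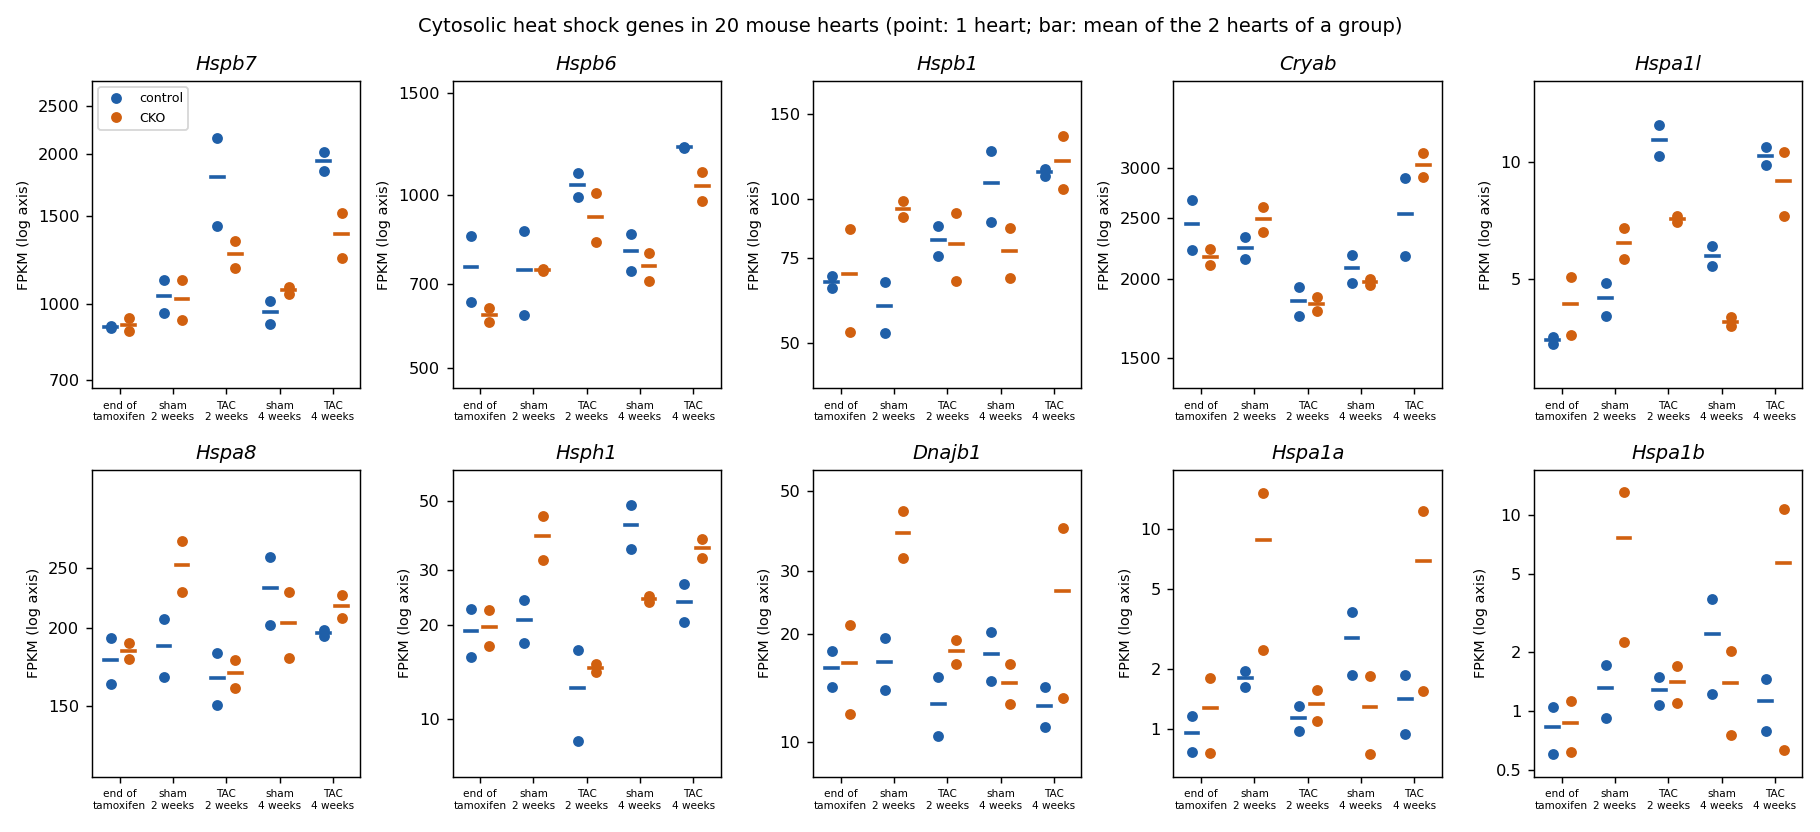
FPKM on a log axis of each of the 10 genes in the 5 stages, with control hearts in blue and CKO hearts in orange; a point is 1 heart and a bar is the mean of the 2 hearts of a group. Hspb7, Hspb6 and Hspa1l stood higher after TAC in control hearts, while single CKO hearts reached 15.1 and 12.3 FPKM of Hspa1a.

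The first question was which of these genes differ under pressure load. Differences are log2 differences of FPKM + 0.5 with their standard error (SE), from 1 limma fit of all 20 hearts, and p-values were adjusted by Benjamini-Hochberg over the 12589 genes tested. An adjusted p under 0.05 counted as a change. The labels name each library as a heart, and the p-values measure the spread between these hearts, with 2 in a group. In control hearts, over both times, Hspa1l, Hspb7 and Hspb6 rose and Hsph1 fell, which made 4 of 10 genes against 31.4% of all genes tested (3 higher against 15.3%, and 1 lower against 16.1%). In CKO hearts Hspa1l and Hspb6 rose, 2 of 10 against 9.11% called (4.23% higher). The median difference of the 10 genes was -0.10 in control and -0.04 in CKO hearts, and over all genes it was -0.0023 and 0.0056.

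Taken by time, control hearts had 3 of 10 genes called at 2 weeks (23.8% of all genes) and 3 at 4 weeks (12.7%). Each time these were Hspb7, Hspb6 and Hspa1l, all higher (11% of all genes were higher at 2 weeks and 6.36% at 4 weeks). CKO hearts had 3 called at 2 weeks (19.3%), and these were Hsph1, Hspa8 and Cryab, all lower (9.21% of all genes were lower). At 4 weeks CKO hearts had 1 called (0.262%), Hspa1l, which was higher (0.151% of all genes were higher). With only the hearts of the compared groups in the fit, the control calls over both times held, 1 of 3 remained in control hearts at each time, and no call in CKO hearts remained.

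Between sham and TAC hearts sums of marker genes differed too. In control hearts the 8 fibroblast markers summed to 649 to 734 FPKM after sham and 767 to 1282 after TAC, and the 7 macrophage markers found to 308 to 606 and 502 to 745. In CKO hearts the fibroblast sum differed by time. At 2 weeks it was 694 to 701 FPKM in sham and 839 to 914 in TAC hearts, and at 4 weeks 707 to 764 in sham and 544 to 627 in TAC hearts, so TAC hearts were the higher pair and then the lower pair. At 2 weeks CKO macrophage markers summed to 391 and 564 FPKM in sham and 691 and 842 in TAC hearts, and the 6 endothelial markers to 238 to 297 and 377 to 426. At 4 weeks the CKO ranges of both lists overlapped. Sums of the lists named for other muscle were also higher after TAC in control hearts, without overlap. The 7 atrial myocyte markers, which include Nppa, summed to 122 to 292 FPKM after sham and 2769 to 10112 after TAC. Myl7, also in that list, overlapped, at 0 to 32.2 FPKM in control sham and 0 to 72.6 in control TAC hearts. The 6 skeletal muscle markers summed to 2578 to 3133 and 4739 to 5631 FPKM, with Myh4 at 0 and Myh1 and Myh2 under 0.5 FPKM. That sum therefore rested on Tnnt3, Ckm and Acta1, and it does not by itself show skeletal muscle tissue. The 7 cardiac myocyte markers summed to 72622 to 75997 FPKM in control sham and 57448 to 62663 in control TAC hearts at 2 weeks, and to 68100 to 77881 and 50990.0 to 59307 in CKO hearts. At 4 weeks these ranges overlapped in both genotypes. The part of these cell types in the differences was not tested. In whole hearts, fewer cells of a type and less RNA per cell cannot be told apart.

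Hspb7 showed the clearest separation among the small heat shock proteins. Control sham hearts had 956, 1114, 1011 and 908 FPKM (hearts 12, 16, 6 and 7), and control TAC hearts had 1434, 2159, 2023 and 1846 FPKM (hearts 11, 32, 1 and 2). The groups did not overlap, and heart 32 stood highest. The means were 997 ± 88.5 and 1865 ± 315 FPKM (SD, n = 4), with a log2 difference of 0.89 ± 0.12 (SE) and an adjusted p of 7.2e-05. At 2 weeks the difference was 0.77 ± 0.16 (adjusted p = 0.0039). It was 0.47 and lost the call without heart 32. Without the 5 hearts with atrial Myl7, which include hearts 11 and 16, it was 1.18. That value sets heart 32 against heart 12 alone. At 4 weeks it was 1.01 ± 0.16 (adjusted p = 0.0017).

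In CKO hearts Hspb7 was 1114, 927, 1078 and 1048 FPKM after sham (hearts 14, 15, 4 and 8) and 1180.0, 1336, 1522 and 1236 FPKM after TAC (hearts 13, 31, 3 and 41). Every TAC heart was above every sham heart. The log2 difference of 0.34 ± 0.12 did not pass (adjusted p = 0.083). It passed, at the same size, without heart 11 or heart 32 (adjusted p = 0.031 in both), and at 0.40 without the 5 hearts with atrial Myl7 (adjusted p = 0.041).

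Hspb6 rose in control hearts from 617, 864, 738 and 855 FPKM after sham (hearts 12, 16, 6 and 7) to 990.2, 1089, 1203 and 1211 FPKM after TAC (hearts 11, 32, 1 and 2). The groups did not overlap, and hearts 1 and 2 at 4 weeks were the highest of all 20. The means were 769 ± 116 and 1123 ± 105 FPKM (SD, n = 4), a log2 difference of 0.55 ± 0.11 (adjusted p = 0.0018). The calls by time were less firm: at 2 weeks the difference was 0.51 ± 0.16 (adjusted p = 0.031), and it lost the call without heart 11, 12 or 32 (adjusted p = 0.060 to 0.29) and dropped to 0.26 without heart 12. Without the 5 hearts with atrial Myl7 it was 0.82, from heart 32 against heart 12 alone. Without a filter on low values its adjusted p was 0.053. At 4 weeks it was 0.60 ± 0.16 (adjusted p = 0.023), and it lost the call without heart 1, 2, 6 or 7 (adjusted p = 0.051 to 0.13).

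In CKO hearts Hspb6 was 743, 736, 709 and 793 FPKM after sham (hearts 14, 15, 4 and 8) and 826, 1006, 1094 and 976 FPKM after TAC (hearts 13, 31, 3 and 41), again without overlap. The log2 difference was 0.38 ± 0.11, just past the threshold (adjusted p = 0.046). Hearts 1, 2, 11, 21, 24 and 32 are not in this comparison, and without each of them the difference stayed at 0.38. The call was lost when any of 13 hearts was left out (these or heart 3, 4, 8, 14, 15, 31 or 41), with differences of 0.31 to 0.42. It was also lost without a filter on low values (adjusted p = 0.075), with a prior without trend (adjusted p = 0.066), without hearts 15 and 41 (adjusted p = 0.16) and without the 5 hearts with atrial Myl7 (adjusted p = 0.082). At 2 weeks alone the CKO difference of 0.30 ± 0.16 did not pass (adjusted p = 0.19), while under quantile normalization it was 0.54 (adjusted p = 0.019).

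Hspb1, which acts on actin filaments, did not pass under TAC in either genotype. In control hearts it was 52.4, 66.8, 89.3 and 126 FPKM after sham (hearts 12, 16, 6 and 7) and 76.1, 87.6, 112 and 115 FPKM after TAC (hearts 11, 32, 1 and 2). The groups overlapped, and the difference was 0.28 ± 0.16 (adjusted p = 0.22). In CKO hearts means were 86.5 ± 13.0 FPKM after sham and 100.1 ± 28.2 after TAC (SD, n = 4; 0.18 ± 0.16, adjusted p = 0.53).

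Cryab, the most abundant of the 10, had similar means over both times in control hearts, at 2158 ± 148 FPKM after sham and 2189 ± 502 after TAC (SD, n = 4; adjusted p = 0.98). At 2 weeks control hearts 11 and 32 had 1940.3 and 1746 FPKM after TAC against 2147 and 2330 (hearts 12 and 16) after sham, a difference of -0.28 ± 0.13 (adjusted p = 0.13). At 4 weeks hearts 1 and 2 had 2177 and 2894 FPKM against 1970.0 and 2186 (hearts 6 and 7), a difference of 0.27 ± 0.13 (adjusted p = 0.18), which passed at 0.48 without heart 1 (adjusted p = 0.048). TAC hearts were thus the lower pair at 2 weeks, and at 4 weeks the pairs overlapped.

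In CKO hearts Cryab was 2373 and 2599 FPKM after sham (hearts 14 and 15) and 1777 and 1869 FPKM after TAC (hearts 13 and 31) at 2 weeks. It fell there by 0.45 on the log2 scale (SE 0.13, adjusted p = 0.026). At 4 weeks the order was the opposite, with 1999 and 1955 FPKM after sham (hearts 4 and 8) and 2902 and 3172 FPKM after TAC (hearts 3 and 41), a difference of 0.62 ± 0.13 that did not pass (adjusted p = 0.063). The fall at 2 weeks was lost without heart 13, 15 or 31 (adjusted p = 0.094 to 0.18), without the 5 hearts with atrial Myl7 (adjusted p = 0.083), without a filter on low values (adjusted p = 0.055) and under quantile normalization, where it was -0.21 (adjusted p = 0.32). Hspb2, which overlaps Cryab, was far less abundant, at 153 ± 10.6 FPKM in CKO sham and 135 ± 14.8 in CKO TAC hearts (SD, n = 4).

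Hspa1l had the largest difference under TAC in control hearts among the 10. It was 4.01, 4.89, 5.41 and 6.07 FPKM after sham (hearts 12, 16, 6 and 7) and 10.3, 12.4, 10.9 and 9.82 FPKM after TAC (hearts 11, 32, 1 and 2). The lowest TAC heart was above the highest sham heart. The means were 5.09 ± 0.868 and 10.9 ± 1.12 FPKM (SD, n = 4), a log2 difference of 1.03 ± 0.13 (adjusted p = 4.9e-05). It was 1.26 ± 0.18 at 2 weeks (adjusted p = 2.8e-04) and 0.80 ± 0.18 at 4 weeks (adjusted p = 0.011). The call at 4 weeks was lost without heart 1 (adjusted p = 0.081) or heart 6 (adjusted p = 0.069).

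In CKO hearts Hspa1l was 5.62, 6.73, 3.99 and 3.77 FPKM after sham (hearts 14, 15, 4 and 8) and 7.25, 7.02, 10.6 and 7.27 FPKM after TAC (hearts 13, 31, 3 and 41). The TAC hearts were all above the sham hearts, by little at 2 weeks, and heart 3 stood apart from the other TAC hearts. The difference over both times was 0.64 ± 0.13 (adjusted p = 0.0087), and with only the compared groups in the fit its adjusted p was 0.059. At 2 weeks it was 0.20 ± 0.18 (adjusted p = 0.47). At 4 weeks it rose by 1.09 ± 0.18 (adjusted p = 0.037), a call that was lost without a filter on low values (adjusted p = 0.055). The call was also lost without heart 3, 4 or 8 (0.83 to 1.12) and without heart 1, 2, 22 or 23. These last hearts are not in the comparison, and without each of them the difference stayed at 1.09. The divergent neighbour Hspa1a did not pass in any of these comparisons.

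**Figure D2:**
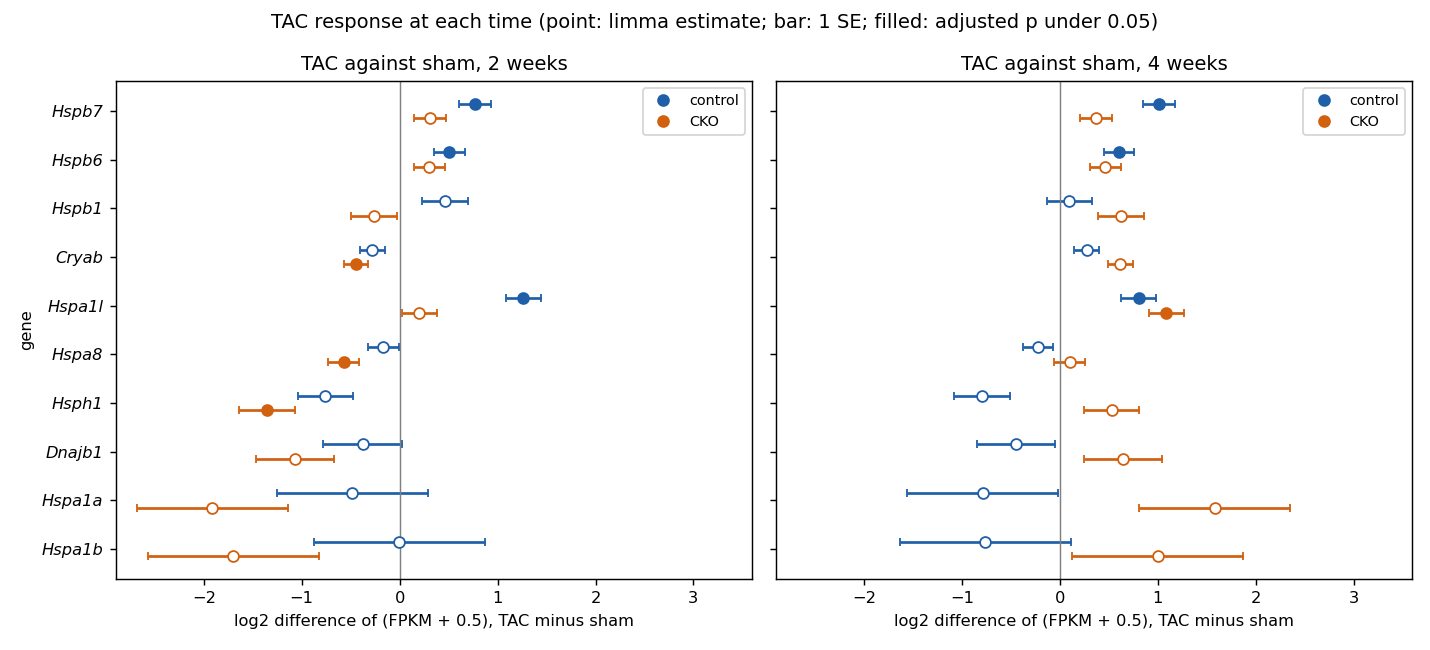
Log2 difference of FPKM + 0.5 between TAC and sham hearts at 2 weeks (left) and 4 weeks (right), for each gene, in control (blue) and CKO hearts (orange); bars are 1 SE and filled points had an adjusted p under 0.05. Hspb7, Hspb6 and Hspa1l were called at both times in control hearts, and in CKO hearts Hsph1 had -1.35 at 2 weeks and 0.53 at 4 weeks.

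The nucleotide exchange factor Hsph1 was the 1 gene of the 10 that fell in control hearts over both times. It was 17.5, 24.0, 35.1 and 48.4 FPKM after sham (hearts 12, 16, 6 and 7) and 16.6, 8.50, 20.4 and 27.1 FPKM after TAC (hearts 11, 32, 1 and 2). The groups overlapped as a whole but not within a time, since sham hearts at 4 weeks were the highest and heart 32 the lowest. The means were 31.2 ± 13.6 and 18.1 ± 7.77 FPKM (SD, n = 4), and Hsph1 fell by 0.78 on the log2 scale (SE 0.20, adjusted p = 0.0091). At 2 weeks the difference was -0.76 ± 0.28 (adjusted p = 0.066), and -1.22 without heart 11, from heart 32 as the single TAC heart. At 4 weeks it was -0.80 ± 0.28 (adjusted p = 0.081), and it passed without heart 11, heart 32 or the 5 hearts with atrial Myl7 (adjusted p = 0.038 in each).

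In CKO hearts Hsph1 went opposite ways by time. It was 32.3 and 44.8 FPKM after sham (hearts 14 and 15) and 15.0 and 14.1 FPKM after TAC (hearts 13 and 31) at 2 weeks, and fell by 1.35 (SE 0.28, adjusted p = 0.0058). At 4 weeks sham hearts had 24.7 and 23.8 FPKM (hearts 4 and 8) and TAC hearts 32.9 and 37.7 FPKM (hearts 3 and 41), a difference of 0.53 ± 0.28 that did not pass (adjusted p = 0.45). TAC hearts were the lower pair at 2 weeks and the higher pair at 4 weeks. Without heart 15 or heart 31 the fall at 2 weeks no longer passed, at -1.31 to -1.12 (adjusted p = 0.061 to 0.081).

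The constitutive Hspa8 stayed within a narrow range. In control hearts it was 167, 207, 203 and 260.4 FPKM after sham (hearts 12, 16, 6 and 7) and 183, 150.5, 195 and 199 FPKM after TAC (hearts 11, 32, 1 and 2), overlapping groups with a difference of -0.20 ± 0.11 (adjusted p = 0.20). In CKO hearts at 2 weeks it was 229 and 276 FPKM after sham (hearts 14 and 15) and 178 and 160.5 FPKM after TAC (hearts 13 and 31), and it fell by 0.57 (SE 0.16, adjusted p = 0.023). At 4 weeks the CKO pairs overlapped, with 179 and 229 FPKM after sham (hearts 4 and 8) and 208 and 226 after TAC (hearts 3 and 41), a difference of 0.10 ± 0.16 (adjusted p = 0.83). The fall at 2 weeks was lost without heart 15 or heart 31 (-0.50 to -0.44, adjusted p = 0.18 to 0.21).

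The stress-inducible genes Hspa1a and Hspa1b were low in most hearts and high in a pair of CKO hearts. Hspa1a was 15.1 FPKM in heart 15 (sham, 2 weeks) and 12.3 FPKM in heart 41 (TAC, 4 weeks), while the other 18 hearts had at most 3.86 FPKM, in heart 6. The other heart of each of these groups had 2.50 FPKM (heart 14) and 1.55 FPKM (heart 3). Hspa1b followed, with 13.0 FPKM in heart 15, 10.7 FPKM in heart 41 and at most 3.70 FPKM elsewhere, again in heart 6.

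Dnajb1, the J-domain partner of HSP70, was highest in the same hearts, with 44.1 FPKM in heart 15 and 39.5 FPKM in heart 41, followed by 32.5 FPKM in heart 14. In the remaining 17 hearts it was 10.4 to 21.2 FPKM. Hspa8 was also highest in heart 15, and Hsph1 was highest in heart 7, followed by hearts 15 and 41. Hspb7 did not follow, ranking 16 of 20 in heart 15 and 7 in heart 41. The 10 immediate early genes, which mark handling and acute stimulation, summed to 125 FPKM in heart 15, 281 in heart 14 and 354 in heart 41, against 265 to 714 in the hearts at the end of tamoxifen, where Hspa1a was 0.762 to 1.80 FPKM in CKO and 0.767 to 1.16 FPKM in control hearts. Myl7 was at 0 in both hearts 15 and 41. The 3 red blood cell markers found summed to 92.1 FPKM in heart 41, against 601 to 2234 FPKM in the other hearts and 926 in heart 15. The part of this difference was not tested.

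**Figure D3:**
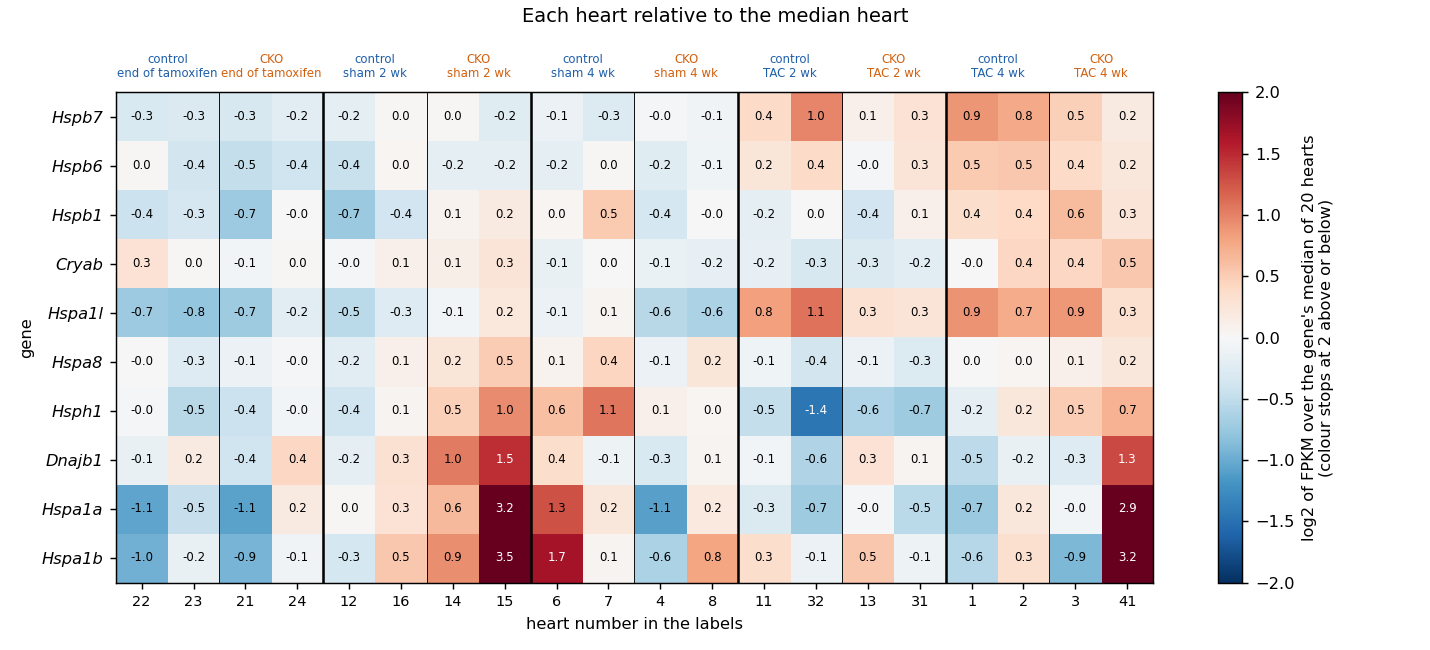
Log2 of FPKM over the median of the 20 hearts for each gene (rows) in each heart (columns, grouped by stage and genotype); red is above and blue below the median, and colour stops at 2. Hspa1a, Hspa1b and Dnajb1 were highest in hearts 15 and 41, whereas Hspb7 and Hspa1l were highest in control TAC hearts.

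Because these hearts belong to groups of 2, the group comparisons of the inducible genes rested on them. In control hearts Hspa1a was 1.63, 1.96, 3.86 and 1.87 FPKM after sham (hearts 12, 16, 6 and 7) and 1.31, 0.980, 0.951 and 1.87 FPKM after TAC (hearts 11, 32, 1 and 2), a difference of -0.64 ± 0.54 (adjusted p = 0.40). In CKO hearts at 2 weeks the difference was -1.91 ± 0.77 (adjusted p = 0.096) and at 4 weeks 1.58 ± 0.77 (adjusted p = 0.41). Without hearts 15 and 41 these were -0.72 (adjusted p = 0.43) and 0.26 (adjusted p = 0.86). The CKO difference at 2 weeks was -3.10 without heart 14, and without the 5 hearts with atrial Myl7, which include heart 14. Both leave heart 15 as the single CKO sham heart at 2 weeks. Without heart 3 or 41, which are not in that comparison, the difference stayed at -1.91, though it then passed.

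Hspa1b and Dnajb1 showed the same dependence. Hspa1b differed in CKO hearts by -1.70 ± 0.87 at 2 weeks (adjusted p = 0.19) and 1.00 ± 0.87 at 4 weeks (adjusted p = 0.67), and the latter turned to -0.66 without heart 41. Dnajb1 differed by -1.06 ± 0.40 at 2 weeks (adjusted p = 0.076), a difference that passed without heart 3 or heart 41 (adjusted p = 0.021 in both), and by 0.64 ± 0.40 at 4 weeks (adjusted p = 0.52), which turned to -0.13 without heart 41. With Hspa1a and Hspa1b summed, since their reads may be shared, the CKO differences were -1.94 ± 0.87 at 2 weeks (adjusted p = 0.13) and 1.42 ± 0.87 at 4 weeks (adjusted p = 0.51).

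The second question was whether the genotypes differ. In TAC hearts over both times, Hspb7 was lower in CKO than in control hearts, the 1 gene of the 10 called (3.45% of all genes). The 4 CKO TAC hearts averaged 1318 ± 150.1 FPKM and the 4 control TAC hearts 1865 ± 315 (SD), and the log2 difference was -0.49 ± 0.12 (adjusted p = 0.031). The groups overlapped through control heart 11, at 1434 FPKM, which lay below CKO heart 3, at 1522 FPKM. Other marker sums also stood higher in control than in CKO TAC hearts: skeletal muscle at 4739 to 5631 against 3121 to 4454 FPKM and atrial myocyte at 2769 to 10112 against 456 to 1497 FPKM, neither overlapping. Not every marker of these lists followed its sum. Myl7 was 0 to 72.6 FPKM in control and 0 to 1.16 in CKO TAC hearts. Myh4 was at 0 and Myh1 and Myh2 were under 0.5 FPKM in all hearts, so the skeletal muscle sum rested on Tnnt3, Ckm and Acta1. The atrial sum includes Nppa. Fibroblast sums of 767 to 1282 and 544 to 914 FPKM overlapped as a whole but not within a time. The part of these markers was not tested. The call was lost without heart 1, 2, 13, 32 or 41 (-0.52 to -0.34, adjusted p = 0.060 to 0.13), without hearts 15 and 41 together (-0.42, adjusted p = 0.13), without a filter on low values (adjusted p = 0.058), under quantile normalization (adjusted p = 0.086) and with only the compared groups in the fit (adjusted p = 0.20).

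Hspa1l differed between genotypes under TAC by -0.43 ± 0.13 (adjusted p = 0.086), passing at -0.56 without heart 3 (adjusted p = 0.026). Dnajb1 differed by 0.67 ± 0.28 (adjusted p = 0.24), and without heart 3 by 1.05 (adjusted p = 0.021). At 2 weeks alone limma called 0 of 10 genes (0.413% of all genes), with 2 at an unadjusted p under 0.05, Hspb7 and Hspa1l. At 4 weeks it called 0 (0.834%), with 2 at an unadjusted p under 0.05, Hspb7 and Cryab. Leaving out heart 11 made Hspb7 pass at 2 weeks, at -0.78 (adjusted p = 0.032), and leaving out heart 3 made Dnajb1 pass at 4 weeks, at 1.62 (adjusted p = 0.039).

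The difference of the TAC responses, CKO minus control, was called for 0 of 10 genes by limma (1.25% of all genes), with 2 at an unadjusted p under 0.05. These were Hspb7, at -0.55 ± 0.16 (adjusted p = 0.13), and Hspa1l, at -0.39 ± 0.18 (adjusted p = 0.37). Without heart 11 the Hspb7 difference was -0.70 and passed (adjusted p = 0.023). For Hspb6 the difference of responses was -0.17 ± 0.16 (adjusted p = 0.70), and for Hsph1 it was 0.37 ± 0.28 (adjusted p = 0.64).

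Without TAC, no gene of the 10 passed between the genotypes. In sham hearts limma called 0 of 10 (0.00794% of all genes) and at the end of tamoxifen 0 (0.0159%), with 0 at an unadjusted p under 0.05 in either. Hspb7 averaged 997 ± 88.5 FPKM in control and 1042 ± 81.3 in CKO sham hearts (SD, n = 4), and after tamoxifen it was 891 and 901 FPKM in control hearts 22 and 23 and 879 and 934 in CKO hearts 21 and 24. Hspa1l was 3.53 and 3.40 FPKM in hearts 22 and 23 and 3.57 and 5.04 in hearts 21 and 24. Wnt5a itself did not pass between the genotypes, at -0.62 ± 0.15 in sham and -0.41 ± 0.15 in TAC hearts (limma adjusted p = 0.17 in the latter). Under TAC against sham it passed, at -0.76 ± 0.15 in control (limma adjusted p = 0.0015) and -0.55 ± 0.15 in CKO hearts (adjusted p = 0.034).

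Between the end of tamoxifen and sham hearts at 2 weeks, over both genotypes, limma called 0 of 10 genes (0.913% of all genes), with 5 at an unadjusted p under 0.05. These were Hspa1l (0.40 ± 0.13, adjusted p = 0.15), Hsph1 (0.53 ± 0.20, adjusted p = 0.22), Hspa1a (1.33 ± 0.54, adjusted p = 0.25), Hspa8 (0.26 ± 0.11, adjusted p = 0.27) and Dnajb1 (0.63 ± 0.28, adjusted p = 0.29). All 5 were higher at 2 weeks after sham, where heart 15 was among the 4 hearts. Without hearts 15 and 41 the Hspa1a difference was 0.74.

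A further question was the change from 2 to 4 weeks after TAC. In CKO hearts Cryab and Hsph1 rose, 2 of 10 genes (14.9% of all genes were called, and 7.09% were higher). Cryab went from 1777 and 1869 FPKM (hearts 13 and 31) to 2902 and 3172 FPKM (hearts 3 and 41), a difference of 0.74 ± 0.13 (adjusted p = 0.0033), and it was 0.43 under quantile normalization, where it did not pass (adjusted p = 0.057). With only the compared groups in the fit neither Cryab nor Hsph1 passed (adjusted p = 0.11 in both). Hsph1 went from 15.0 and 14.1 FPKM to 32.9 and 37.7 FPKM, a difference of 1.24 ± 0.28 (adjusted p = 0.012), which was lost without heart 31 or heart 41 (1.15 to 1.20, adjusted p = 0.059 to 0.11). Cardiac myocyte markers summed to 50990.0 to 59307 FPKM in these hearts at 2 weeks and 71052 to 73879 at 4 weeks, and fibroblast markers to 839 to 914 and 544 to 627. The part of either list was not tested. Hspa1a, at 1.49 ± 0.77 (adjusted p = 0.20), passed at 2.81 without heart 3 (adjusted p = 0.046), leaving heart 41 as the single TAC heart at 4 weeks.

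In control hearts limma called 0 of 10 genes between 2 and 4 weeks after TAC (2.16% of all genes), with 2 at an unadjusted p under 0.05. These were the same genes, Cryab at 0.45 ± 0.13 (adjusted p = 0.079) and Hsph1 at 0.95 ± 0.28 (adjusted p = 0.088). Hsph1 passed at 1.42 without heart 11 (adjusted p = 0.034). An interaction of genotype and time after TAC was called by limma for 0 of the 10 (0.00794% of all genes, 0 at an unadjusted p under 0.05), with Cryab at 0.29 ± 0.18 and Hsph1 at 0.29 ± 0.40, the latter turning to -0.17 without heart 11.

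The opposite signs at 2 and 4 weeks in CKO hearts were tested directly, as a comparison added after the values were seen. The TAC response at 4 weeks minus that at 2 weeks was called for 2 of 10 genes in CKO hearts (6.54% of all genes), Cryab at 1.06 ± 0.18 (adjusted p = 0.0093) and Hsph1 at 1.88 ± 0.40 (adjusted p = 0.020). Hspa1l (0.89 ± 0.25, adjusted p = 0.052), Hspa1a (3.49 ± 1.09, adjusted p = 0.068), Dnajb1 (1.71 ± 0.56, adjusted p = 0.080), Hspa8 (0.67 ± 0.22, adjusted p = 0.081) and Hspa1b (2.70 ± 1.23, adjusted p = 0.19) did not pass. For Hspa1a, Dnajb1, Hspa1b and Hspa1l, leaving out 1 heart decided the side of the threshold. Without heart 3, which leaves heart 41 alone in its group, Hspa1a was at 4.81, Dnajb1 at 2.48 and Hspa1b at 4.36. Hspa1a was at 4.68 without heart 14, which leaves heart 15 alone, and Hspa1l at 1.15 without heart 41. Without heart 21 or 24, which are not in this comparison, the Hspa1l difference stayed at 0.89. Only the shared spread and the adjustment changed there. Hsph1 lost the call without heart 8, 15 or 31 (adjusted p = 0.064 to 0.091).

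Without hearts 15 and 41 together neither gene passed in that comparison, with Cryab at 0.93 (adjusted p = 0.088) and Hsph1 at 1.55 (adjusted p = 0.15). Under quantile normalization Cryab was at 0.68 (adjusted p = 0.063). With only the compared groups in the fit the adjusted p was 0.062 for Cryab and 0.052 for Hsph1. The sham pairs stood at different levels too, since Hsph1 was 32.3 and 44.8 FPKM in CKO sham hearts at 2 weeks and 24.7 and 23.8 at 4 weeks. In control hearts limma called 0 of 10 for the same comparison (0.00794% of all genes), with 1 at an unadjusted p under 0.05, Cryab at 0.56 ± 0.18 (adjusted p = 0.22).

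Other chaperone genes were counted in 7 lists with 71 genes, of which 66 were tested. In control hearts 7 of 66 rose and 18 fell under TAC, against 15.3% and 16.1% of all genes tested, and their median difference was -0.04. The list of HSP90 and its co-chaperones had 7 of 16 genes lower and 1 higher over both times. At 2 weeks it had 5 of 16 lower in control (12.8% of all genes) and 5 in CKO hearts (9.21%). At 4 weeks it had 3 lower in control (6.37%) and 0 in CKO hearts (0.111%). The difference of TAC responses between genotypes was called by limma for 0 of the 16 (1.25% of all genes), with 3 at an unadjusted p under 0.05. In control hearts over both times Fkbp4, an HSP90 co-chaperone, fell from 304 ± 23.2 to 164 ± 48.3 FPKM (SD, n = 4; -0.94 ± 0.13, adjusted p = 1.2e-04), the myosin chaperone Unc45b fell by 0.71 (adjusted p = 1.4e-04) and Hsp90ab1, the constitutive HSP90, fell by 0.37 (adjusted p = 0.0040). The inducible Hsp90aa1 was at 0.30 ± 0.13 (adjusted p = 0.093).

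Of 4 other small heat shock proteins tested 2 rose and none fell, among them Hspb8 (0.28 ± 0.06, adjusted p = 0.0020), and Bag3, its partner in the list of HSP70 partners, was at 0.06 ± 0.08 (adjusted p = 0.57). Of 7 other HSP70 and HSP110 genes 1 fell, Hspa12a, by 0.82 (adjusted p = 1.2e-04). Of 4 heat shock factor genes tested 2 fell, Hsf4 by 0.72 (adjusted p = 0.0037) and Hsf1 by 0.29 (adjusted p = 0.042). The Hsf1 call was lost without heart 1, 2, 3, 6, 7, 12, 16, 22, 23, 32 or 41 (adjusted p = 0.051 to 0.18), and the difference was -0.16 without heart 32. J-domain genes had 2 of 12 higher and 3 lower, HSP70 partners 1 of 10 higher and 3 lower, and the chaperonin and prefoldin genes 1 of 13 higher and 2 lower. Among all genes tested 15.3% were higher and 16.1% lower in the same comparison.

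In CKO hearts over both times 0 of 66 rose and 2 fell, against 4.23% and 4.89% of all genes. These were Hsf4, lower by 0.54 (adjusted p = 0.049), and Dnaja2, a J-domain partner of HSP70, lower by 0.31 (adjusted p = 0.022). Both calls depended on single hearts: Hsf4 was lost without any of 15 hearts (adjusted p = 0.055 to 0.19) and Dnaja2 without heart 3, 4, 8, 15 or 31 (adjusted p = 0.054 to 0.10). At 2 weeks 1 rose and 14 fell in CKO hearts, against 10% and 9.21% of all genes, while most of these calls were lost without hearts 15 and 41. At 4 weeks limma called 0 of 66 (0.262% of all genes), with 12 at an unadjusted p under 0.05. Between 2 and 4 weeks after TAC in CKO hearts 13 of 66 rose and 2 fell, against 7.09% and 7.82% of all genes.

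**Figure D4:**
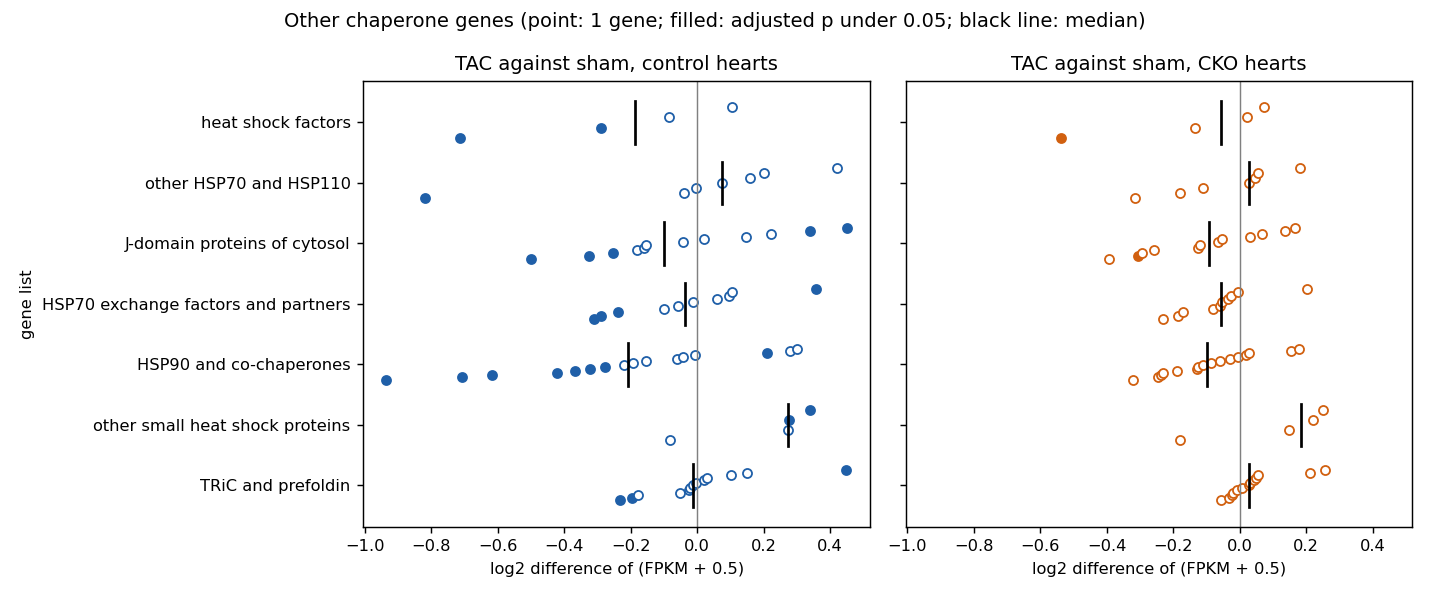
Log2 difference of FPKM + 0.5 between TAC and sham hearts over both times, for the 66 other chaperone genes tested, by list, in control (left) and CKO hearts (right); a point is 1 gene, filled where the adjusted p was under 0.05, and a black line is the list median. HSP90 and its co-chaperones had 7 of 16 genes lower in control hearts (16.1% of all genes). Over both times 0 were called in CKO hearts (9.11%), where 5 were lower at 2 weeks (9.21%).

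For each gene called in at least 1 comparison, the 3 genes most like it over the 20 hearts were found by Pearson's r in log2(FPKM + 0.5) among 10638 genes. These r describe points that share groups and libraries, and they carry no test. Hspb7 was closest to Clic5 (r = 0.97), Pfkp (0.95) and Nt5c2 (0.94), and Hspb6 to Sorbs2 (0.94), Rrp12 (0.93) and Pfkp (0.92). Hspa1l was closest to Kif5b, Rras2 and Tnfrsf12a (each 0.93), none of which is a chaperone gene.

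Hspa8 and Hsph1 followed each other and other chaperone genes. Hspa8 was closest to Hsph1 (r = 0.90), Stip1 and Hsp90ab1 (each 0.87), and Hsph1 to St13 and Hsp90ab1 (each 0.93) and Tomm40l (0.91). Cryab was closest to Rpap2 (0.87), Lap3 (0.84) and Ppa1 (0.80). Without hearts 15 and 41 the r of Hsph1 with Hsp90ab1 remained at 0.93, and that of Cryab with Ppa1 was 0.71.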

How the data were processed

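Libraries were TruSeq Stranded mRNA, from RNA extracted with miRNeasy Mini columns, per the labels' protocols. Per the submitters' processing notes, the authors used TopHat2 2.1.1, Bowtie2 and Cuffdiff 2.2.1 with mm10, and deposited FPKM for 23284 genes per heart. Annotation, strand setting and handling of multiply mapped fragments are not given in those sources, and fragment counts were not used. The 12589 genes whose mean over 20 hearts reached 0.5 FPKM were fitted as log2(FPKM + 0.5) in limma 3.58.1 (R 4.3.3), with 1 mean per group, a trended prior, 10 residual and a median of 3.81 prior degrees of freedom; this scale understates changes of low genes. The script was tested on simulated data. Positions are from GENCODE M21, and alignments used Biopython 1.88. All 10 genes are named, with the 3 genes most like each one called, among those averaging 1 FPKM or above, leaving out clone-named and predicted genes; the other chaperone genes named are examples. The genes and lists were chosen with earlier results of these data known. Other settings tried were a pseudocount of 0.1 or 1 FPKM, a filter of 3 FPKM or none, median-ratio scaling, quantile normalization, only the compared groups, a prior without trend, Hspa1a and Hspa1b summed, and each heart left out. Fits that leave out hearts 15 and 41 or the 5 hearts where Myl7 reached 10 FPKM, and the comparison of TAC responses between times were added after seeing the data.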

Additional observations from a re-analysis of the deposited data

Results flagged for a closer look

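Among 40 sets of 4 hearts (a gene within 1 genotype and operation), 6 had a heart far from the others by Dixon's test, where chance gives about 1 in 20. Hspa1a was 15.1 FPKM in heart 15 among CKO sham hearts and 12.3 FPKM in heart 41 among CKO TAC hearts. Hspa1b was 13.0 and 10.7 FPKM in the same hearts. Since fragments of these near-identical genes may be shared, they are not separate observations. Hspa1a was 3.86 FPKM in heart 6 among control sham hearts, and Hspa1l was 10.6 FPKM in heart 3 among CKO TAC hearts.

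The TAC response of CKO hearts differed between 4 and 2 weeks, by a test added after the values were seen, for Hsph1 (1.88 on the log2 scale, limma adjusted p = 0.020) and Cryab (1.06, limma adjusted p = 0.0093).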

How the results depend on the processing

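With 2 hearts in a group, calls near the threshold depended on single hearts, and a group left with 1 heart was assumed to vary like the others. Where the heart left out is not in a comparison, the difference there stays the same. Only the shared spread and the adjustment then change. FPKM without fragment totals left the counting error of Hspa1a and Hspa1b unknown. No paired analysis was possible because each heart number occurs once. The 4 calls of TAC in control hearts over both times held under every alternative and without each heart. Of 949 values of 89 gene differences under 11 other settings, 891 kept direction and side of the threshold, 47 lost and 5 gained the call and 6 turned sign; with hearts left out in turn it was 1671, 78, 26 and 5 of 1780. Except where named, the cause was not tested.

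Genes called of 10 (first number as reported) were as follows. For TAC in CKO hearts, 2 became 1 without filter, with a prior without trend or without hearts 15 and 41, and 0 when fitted on the compared groups alone, which leaves fewer hearts. That last setting gave 1 in place of 3 in control hearts at 2 weeks and at 4 weeks. In CKO hearts it gave 0 in place of 3 at 2 weeks and 0 in place of 1 at 4 weeks. It also lost the 1 call for CKO against control under TAC. The 2 calls for 4 against 2 weeks in CKO TAC hearts were lost too, as were the 2 for the difference of responses between times. CKO hearts at 2 weeks had 0 without hearts 15 and 41, and at 4 weeks 0 without filter. CKO against control under TAC had 0 without filter, under quantile normalization and without hearts 15 and 41. For 4 against 2 weeks in CKO TAC hearts, 2 became 1 under quantile normalization and without hearts 15 and 41; for the difference between times in CKO hearts, 1 and 0.

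With each heart left out the counts were 1 to 2 for TAC in CKO hearts, 0 to 1 for the difference of responses, 1 to 3 and 1 to 4 for control hearts at 2 and 4 weeks, 0 to 5 and 0 to 1 for CKO hearts at 2 and 4 weeks, 0 to 3 for CKO against control under TAC and 0 to 1 at either time, 0 to 1 and 1 to 3 for 4 against 2 weeks in control and CKO TAC hearts, and 1 to 5 for the difference between times in CKO hearts.

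Other chaperone genes called for TAC were 25 in control hearts (15 to 24 with a heart left out) and 2 in CKO hearts (0 to 4): 1 with a pseudocount of 0.1 FPKM, without filter and with a filter of 3 FPKM, 6 under quantile normalization, and 0 on the compared groups alone, without hearts 15 and 41, or without the 5 Myl7 hearts. In CKO hearts at 2 weeks 15 became 0 with only the compared groups, 2 without hearts 15 and 41, and 2 to 16 with a heart left out.

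Signs turned for differences that had not passed: under TAC in CKO hearts Dnajb1 was -0.60 to 0.17 with a heart left out (0.17 without heart 3). At 4 weeks Hspa8 was -0.0086 under quantile normalization and -0.075 to 0.27 with a heart left out (-0.075 without heart 4). Hspa1b was -0.66 to 2.66 and Dnajb1 -0.13 to 1.41 with a heart left out, the lowest without heart 41, alone or with heart 15; Hspa1b was -0.11 for the difference between times without hearts 15 and 41; Hsph1 was -0.17 to 0.75 with a heart left out for the difference of changes with time (-0.17 without heart 11 and without the 5 Myl7 hearts); and Hspb2 was 0.014 in control hearts without the 5 Myl7 hearts.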
